A study of Homo sapiens with 4 samples.

Results

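The genes described here are 7 that encode poly(A)-binding proteins and proteins that work with them: PABPC1, PABPC4, PABPN1, PAIP1, PAIP2, LARP1 and LARP4. They were read out in the human breast cancer line MDA-MB-231 by cross-linking and immunoprecipitation (CLIP), in which cells are lit with ultraviolet light (400 mJ per cm2 at 254 nm), the protein is pulled down, and the RNA fixed to it is sequenced as tags. One group of 2 samples was made for HNRNPC, a nuclear protein that binds U-rich RNA, by irCLIP per the labels. One group of 2 samples was made for PABPC4 by PAPERCLIP. In PAPERCLIP, copying of the bound RNA is meant to start from its poly(A) tail, so that peaks mark mRNA 3′ ends. Of the PABPC4 peaks, however, 29.8% lay in 3′ UTRs and 60.2% in introns. The labels name no treatment other than the light for either group. The authors pooled the tags of both samples of a protein before calling peaks, so each protein has 1 list, there is no spread between replicates, and no difference below was tested. Peaks were taken for the 7 genes by the NCBI Gene ID written in each list, each position once. This gave 56 peaks of 63507 in the PABPC4 list and 12 of 9107 in the HNRNPC list, for 7 of the 11948 protein-coding genes with a peak in either list. The value of a peak is its height, the number of pooled tags at its summit, which follows the amount of the mRNA as well as binding, and no RNA level was measured in these lists.

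Cytoplasmic poly(A)-binding proteins, among them PABPC1 and PABPC4, coat the poly(A) tail of mRNAs, protect it and help translation begin, while PABPN1 binds the growing tail in the nucleus. PAIP1 binds PABPC1 and stimulates translation, PAIP2 binds it and represses translation, LARP1 binds the cap and 5′ end of mRNAs for ribosomal proteins, and LARP4 binds poly(A) and PABPC1. The mRNA of PABPC1 is known for an A-rich tract in its 5′ UTR through which the protein limits its own translation, so peaks within these mRNAs other than at the 3′ end are of interest. As a check of the cell line, all 6 genes fixed as marks of MDA-MB-231 (such as VIM, an intermediate filament gene) had PABPC4 3′ UTR peaks, with a median summed height of 965.5 tags, against 3 of 6 luminal or epithelial genes (such as ESR1), with a median of 28.0 tags. The lists overlapped, with sums of 73 (ZEB1) to 11023 tags (VIM) against 0 to 145 tags (EPCAM).

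The PABPC4 mRNA carried its tallest peak at an A-rich tract near its 5′ end, so this tract is shown first, in hg38, on the minus strand of chromosome 1, as RNA from 5′ to 3′ with runs of 3 or more A in capitals. The first line lies inside the peak and the second is the 30 nt that follow it. Both hold 23 A in 30 nt.
PABPC4 5′ UTR, inside the peak, chr1:39576708-39576737: gaggAAAAAAAgagAAAAAgauAAAAAAAA
PABPC4 5′ UTR, after the peak, chr1:39576656-39576685: gAAAAAAAAAAAggAAAAgAAAAAAcgaau

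The last 30 nt of the main 3′ UTR peaks of 5 genes follow, since they show which of these ends carry a poly(A) signal, the hexamer that directs cleavage. The PABPC1 ends, among them the tallest 3′ UTR peak of the 7 genes, and the 4 lowest LARP4 peaks are described in words only. Capitals mark every AAUAAA or AUUAAA, or, for the taller LARP1 peak, which has neither, the single-base variant CAUAAA.
PABPC4, 1155 tags, chr1:39560814-39560843, minus strand: ccAAUAAAgaaaaaaaaucuccauaaaacu
PABPN1, 2130 tags, chr14:23325337-23325366, plus strand: aaaaaaaagaAUUAAAaaaaaaaaaaagaa
PABPN1, 140 tags, chr14:23326146-23326175, plus strand: uguuuuugaaAAUAAAaauuguuuggccuu
PAIP2, 117 tags, chr5:139368919-139368948, plus strand: uuguuagucuugcaugcuuAAUAAAagugc
PAIP2, 116 tags, chr5:139369686-139369715, plus strand: auauuuaaaaaAAUAAAuaauaguagaacu
LARP1, 1441 tags, chr5:154814889-154814918, plus strand: CAUAAAagaccaaaaaaaaaaaaaaaauca
LARP1, 271 tags, chr5:154817570-154817599, plus strand: aaaaauguauaaaAAUAAAcacuugaaaag
LARP4, 199 tags, chr12:50479973-50480002, plus strand: aauuagaaaaaaAAUAAAauuAUUAAAaag
LARP4, 57 tags, chr12:50477216-50477245, plus strand: gAAUAAAguuguagcucucauauacuaaau

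The third set shows the 30 nt after selected PABPC4 peaks that lie in introns and just before long genomic runs of A. Of the 30 intron peaks of these genes, 18 had an A-rich stretch (defined below) in the next 50 nt, against 71.2% of all intron peaks. The peaks shown have 19 to 27 A in the next 30 nt. Others of the 18 have from 8 (PAIP2, 76 tags) to 27 (LARP1, 28 tags). Capitals again mark runs of 3 or more A. The whole sequence of the LARP1 peak shown, of 29 tags, had 33 other places in the genome with at most 2 mismatches. The primer that copied PAPERCLIP RNA ends in a run of T with no anchoring base, and whether the tags of any peak below began at a poly(A) tail or at such a genomic run was not tested.
PAIP1 intron, 21 tags, chr5:43551734-43551763, minus strand: uAAAAAAAAAAAAAAAAAgauugcAAAuca
PAIP2 intron, 28 tags, chr5:139351313-139351342, plus strand: acuAAAAAAAAAAAAgagugaucauagcaa
LARP1 intron, 29 tags, chr5:154764596-154764625, plus strand: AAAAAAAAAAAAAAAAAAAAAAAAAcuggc
LARP4 intron, 41 tags, chr12:50463423-50463452, plus strand: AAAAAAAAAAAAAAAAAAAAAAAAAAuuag

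At the 5′ end, the mRNAs of both cytoplasmic poly(A)-binding proteins carried the 2 tallest 5′ UTR peaks of the whole PABPC4 list. The PABPC1 peak reached 1477 tags (rank 1 of 268 5′ UTR peaks) and the PABPC4 peak 1216 tags (rank 2), while the next reached 795 tags and the median was 48.5 tags. These were 2 of 56 peaks of the 7 genes, or 3.57%, against 0.422% of all peaks of the list, and no HNRNPC peak of the 7 genes lay in a 5′ UTR. Together both peaks held 12.9% of the summed height of all 5′ UTR peaks. When a peak was placed by its 3′ end, or counted on any overlap with a 5′ UTR, 1 taller peak (RNASEK, 1564 tags, centred in a 3′ UTR) went above both.

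The PABPC1 peak (chr8:100721974-100722088, minus strand, exon 1) ran from nt 1 to nt 115 of the 505-nt 5′ UTR of the canonical transcript PABPC1-201, counted from the start site. The PABPC4 peak (chr1:39576686-39576786, minus strand, exon 1) ran from nt 5 to nt 105 of the 839-nt 5′ UTR of PABPC4-203. In PABPC1 the 30-nt window with the most A held 22 A and spanned nt 70 to 99, and in PABPC4 it held 23 A and spanned nt 54 to 83, so both windows lay inside the peaks. The longest run was 8 A from nt 82 in PABPC1 and 11 A from nt 107 in PABPC4. Both peaks were followed by an A-rich stretch, defined over the 50 nt downstream as a run of 6 A or a 10-nt window with 7 A, as were 58.2% of all 5′ UTR peaks. Of the next 30 nt, 14 were A in PABPC1 and 23 in PABPC4. Whether the tags of these peaks began at a poly(A) tail or at a run of A in the 5′ UTR was not tested. Neither whole peak sequence (115 nt in PABPC1 and 101 nt in PABPC4) had another place in the genome with at most 2 mismatches. Shorter stretches within the peaks were not searched, so the tags are not shown to be uniquely placed.

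**Figure D1:**
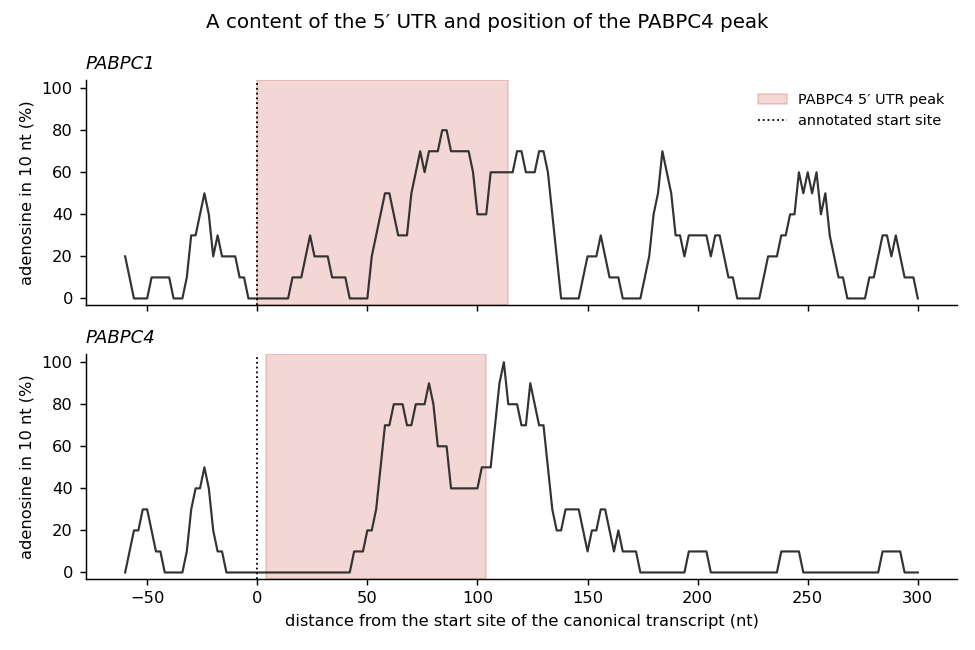
Percent adenosine in a sliding window of 10 nt (y axis) against the distance from the annotated start site of the canonical transcript in nt (x axis), for PABPC1 (top) and PABPC4 (bottom). The shaded span is the PABPC4 5′ UTR peak (1477 and 1216 tags), and in both genes it covers a stretch rich in A and ends before or within another.

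An A-rich 5′ UTR was found in more genes than had such a peak. Over the 18763 canonical 5′ UTRs, 17.6% held an A-rich stretch by the same definition, and 3 of the 7 genes did, PABPC1, PABPC4 and PAIP2. PAIP2 had at most 13 A in 30 nt and no 5′ UTR peak, and PAIP1, LARP1, LARP4 and PABPN1 (whose 5′ UTR is 13 nt long) had at most 2 to 8 A in 30 nt and no 5′ UTR peak. For PABPC4, 45 5′ UTRs outside the 7 genes had at least as many A in 30 nt. Of these 45 genes, 12 had a 5′ UTR peak in the list, the tallest of 410 tags (SOX4, a transcription factor gene, with a 3′ UTR peak of 1249 tags), and 16 had a 3′ UTR peak.

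Because peak height follows the amount of mRNA, the 5′ UTR peaks were also set against the 3′ UTR peaks of the same gene. In PABPC4 the 5′ UTR peak was as tall as the 3′ end peak (1216 against 1155 tags, a ratio of 1.05), and in PABPC1 it was lower than the tallest 3′ UTR peak (1477 against 2204 tags, a ratio of 0.67). Over the 212 protein-coding genes with both kinds of peak the median ratio was 0.452, and 58 genes lay above PABPC4 and 82 above PABPC1, so the ratio alone did not set these mRNAs apart. Among the 165 genes with a 3′ UTR peak of at least 1000 tags, 11 had any 5′ UTR peak. The 9 of these 11 outside the poly(A)-binding proteins reached at most 410 tags in the 5′ UTR, with a median of 74.0 tags, and 4 of them share the same peaks (SULT1A3, SULT1A4, SLX1A and SLX1B). These thresholds were chosen with the values known, so the counts describe the list and test nothing.

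**Figure D2:**
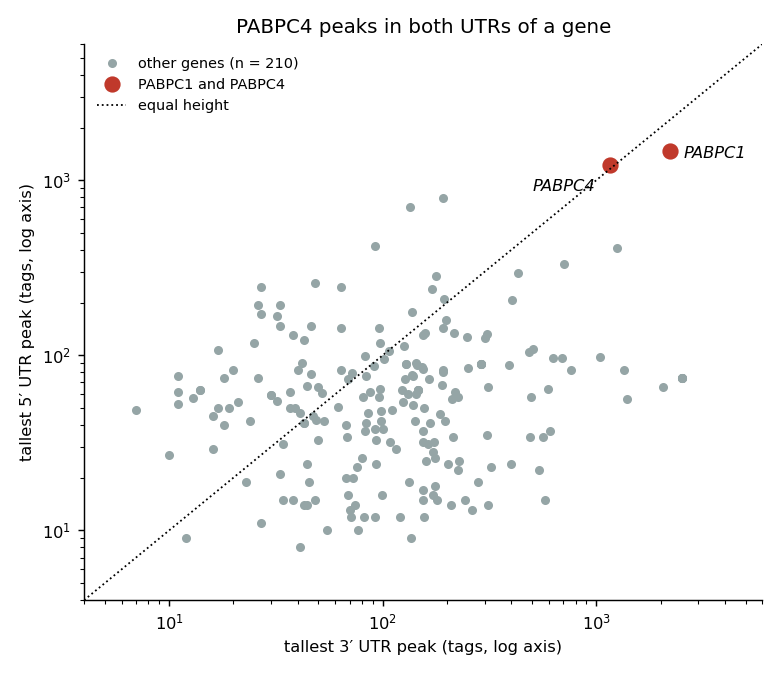
Height of the tallest 5′ UTR peak (y axis, tags, log scale) against that of the tallest 3′ UTR peak (x axis, tags, log scale) for the 212 protein-coding genes with both in the PABPC4 list, each point 1 gene. PABPC1 and PABPC4 (red) lie at the top right, with the tallest 5′ UTR peaks, while other genes with low 3′ UTR peaks lie further above the dotted line of equal height.

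PABPC4 carried only 3 PABPC4 peaks in all, and the third was a lower peak of 101 tags (chr1:39576801-39576847) whose 3′ end lay 11 nt upstream of the annotated start site, outside the annotated gene. It was not followed by an A-rich stretch, with 0 A in the next 30 nt. Of the summed height of the 3 peaks, 49.2% lay in the 5′ UTR and 46.7% in the 3′ UTR. In PABPC1, with 9 peaks, these shares were 27.8% and 63.4%.

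Turning to the 3′ ends, 6 of the 7 genes had PABPC4 3′ UTR peaks, 16 peaks in all, against 48.8% of protein-coding genes. The 3′ UTR held 28.6% of the peaks of the 7 genes, near the 29.8% of the whole list, and 65.8% of their summed height, against 46.1% over the list. Of the 16 peaks, 11 ended within 50 nt of an annotated transcript 3′ end, 68.8% against 54.7% of all 3′ UTR peaks, and 11 held AAUAAA or AUUAAA in the last 40 nt, 68.8% against 48.6%. An A-rich stretch followed 7 of the 16, 43.8% against 31.9%. Of the 16, 7 had an annotated end, a signal and no A-rich stretch after them, against 31.1% of all 3′ UTR peaks. When the stretch was sought from 30 nt before to 50 nt after the peak end, a window that holds the signal's own A, 1 of the 16 was left, against 12.2%, and the canonical-end peaks of all 6 genes then counted as A-rich. In 5 of the 7 genes a 3′ UTR peak was the tallest of the gene, as it was in 57.8% of the protein-coding genes with a PABPC4 peak, the exceptions being PABPC4, where the 5′ UTR peak was, and PAIP1, which had intron peaks only.

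By summed 3′ UTR height, the poly(A)-binding proteins ranked high among the 9780 protein-coding genes with a 3′ UTR peak, whose median was 99.0 tags. PABPC1 summed to 3366 tags (rank 33), PABPN1 to 2270 tags (rank 69) and PABPC4 to 1155 tags (rank 208). Of the partners, LARP1 summed to 1712 tags (rank 115), LARP4 to 326 tags (rank 1437) and PAIP2 to 233 tags (rank 2196). PAIP1 was listed with none. With pooled tags the spread between samples is unknown, so neighbours in this order cannot be said to differ, and the PABPN1 tags are also listed under BCL2L2-PABPN1. The sums take every 3′ UTR peak, also those followed by an A-rich stretch or holding one. At the canonical end alone, the peaks reached 900 tags in PABPC1, 140 in PABPN1 and 1155 in PABPC4. Those of LARP1, LARP4 and PAIP2 reached 271, 199 and 116 tags.

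**Figure D3:**
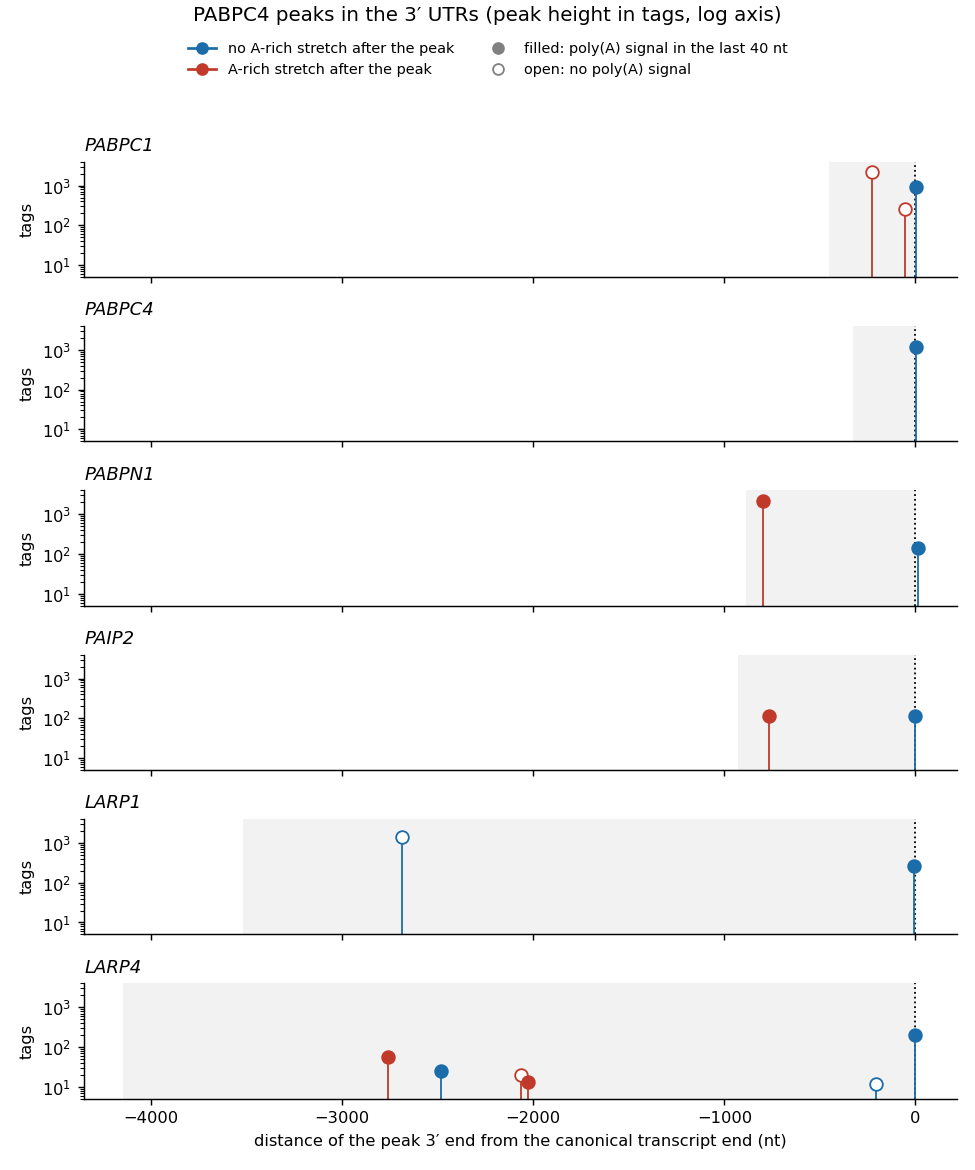
PABPC4 peaks in the 3′ UTRs of the 6 genes that have them, with peak height in tags on a log axis (y) and the distance of the peak 3′ end from the end of the canonical transcript in nt (x), where the grey span is the 3′ UTR. Each gene has a peak at the canonical end (0) with a poly(A) signal (filled) and no A-rich stretch in the 50 nt after it (blue), though all 6 of these peaks hold one when the last 30 nt of the peak are read too. In PABPC1, PABPN1 and LARP1 a taller peak lies upstream, while in PAIP2 one of nearly equal height does.

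PABPC1 had 3 peaks in its 448-nt last-exon 3′ UTR (exon 15, minus strand). The peak at the canonical end (chr8:100702915-100702968) reached 900 tags, ended 1 nt beyond it, and held AAUAAA 23 nt before its end. It made up 26.7% of the 3′ UTR height (95% Wilson interval 25.3 to 28.3%, counting error only, as for the shares that follow). Its sequence had 1 other place in the genome, with 2 mismatches, and the share of its tags from there was not tested. A taller peak of 2204 tags (chr8:100703145-100703352), 65.5% of the height (63.9 to 67.1%), ended 229 nt before the canonical end and 7 nt from the end of another annotated transcript. It had no AAUAAA or AUUAAA, and 22 of the next 30 nt were A. A peak of 262 tags between them was also without a signal and followed by an A-rich stretch.

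PABPC4 differed from PABPC1 in having a single 3′ UTR peak. It reached 1155 tags (chr1:39560814-39560987, exon 16), lay at the canonical end, to within 2 nt, and held AAUAAA 28 nt before its end. No A-rich stretch followed it.

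PABPN1, the nuclear poly(A)-binding protein, had its main peak far from the canonical end. A peak of 2130 tags (chr14:23325247-23325366, plus strand, exon 7) made up 93.8% of the 3′ UTR height (92.8 to 94.8%) and ended 797 nt before the canonical end, 3 nt from the end of another annotated transcript. It held AUUAAA 20 nt before its end, within a longer run of A, and 17 of the next 30 nt were A. The peak at the canonical end (chr14:23326060-23326175) reached 140 tags, 6.2% (5.2 to 7.2%), with AAUAAA 20 nt before its end. All 3 PABPN1 peaks, these and one of 89 tags in the coding sequence, were also listed under the read-through gene BCL2L2-PABPN1, so the tags cannot be assigned to one of them.

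The binding partners PAIP1 and PAIP2 were lower. PAIP2 had 2 3′ UTR peaks of nearly equal height in exon 4 on the plus strand of chromosome 5, of 117 tags (chr5:139368902-139368948) and 116 tags (chr5:139369621-139369715). Their shares were 50.2% (43.8 to 56.6%) and 49.8% (43.4 to 56.2%). These intervals of counting error overlap, and a difference was not tested. The first ended 769 nt before the canonical end, with AAUAAA 11 nt before its end and an A-rich stretch after it, and the second ended 2 nt before the canonical end, with AAUAAA 19 nt before its end and no A-rich stretch. For PAIP1, no peak of either list touched the 1112-nt 3′ UTR, and its 4 PABPC4 peaks lay in introns with 50, 21, 10 and 13 tags from 5′ to 3′.

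LARP1 had 2 peaks in its 3512-nt 3′ UTR (exon 19, plus strand). The taller, of 1441 tags (chr5:154814709-154814918), made up 84.2% of the 3′ UTR height (82.4 to 85.8%) and ended 2687 nt before the canonical end and 998 nt from any annotated transcript end. It had no AAUAAA or AUUAAA. The rule found no A-rich stretch after it, but the last 30 nt of the peak held a run of 16 A, which the rule does not read. The other, of 271 tags (chr5:154817464-154817599), 15.8% (14.2 to 17.6%), ended 6 nt before the canonical end with AAUAAA 17 nt before its end.

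LARP4 spread over 6 peaks in its 4143-nt 3′ UTR (exon 16, plus strand of chromosome 12). The tallest, of 199 tags (chr12:50479941-50480002), made up 61.0% of the 3′ UTR height (55.7 to 66.2%) and ended 2 nt before the canonical end with AUUAAA 9 nt and AAUAAA 18 nt before its end. The next, of 57 tags (chr12:50477198-50477245), made up 17.5% (13.7 to 22.0%), ended 2759 nt before the canonical end and held AAUAAA. It ended 252 nt from the nearest annotated transcript end and was followed by an A-rich stretch. The remaining peaks reached 25, 20, 13 and 12 tags, all below the list's median of 38.0 tags. That of 25 tags (chr12:50477476-50477523) ended 6 nt from an annotated transcript end and held AUUAAA 31 nt before its end. No A-rich stretch followed it, and it was the 1 peak left under the wider A-rich window above.

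**Figure D4:**
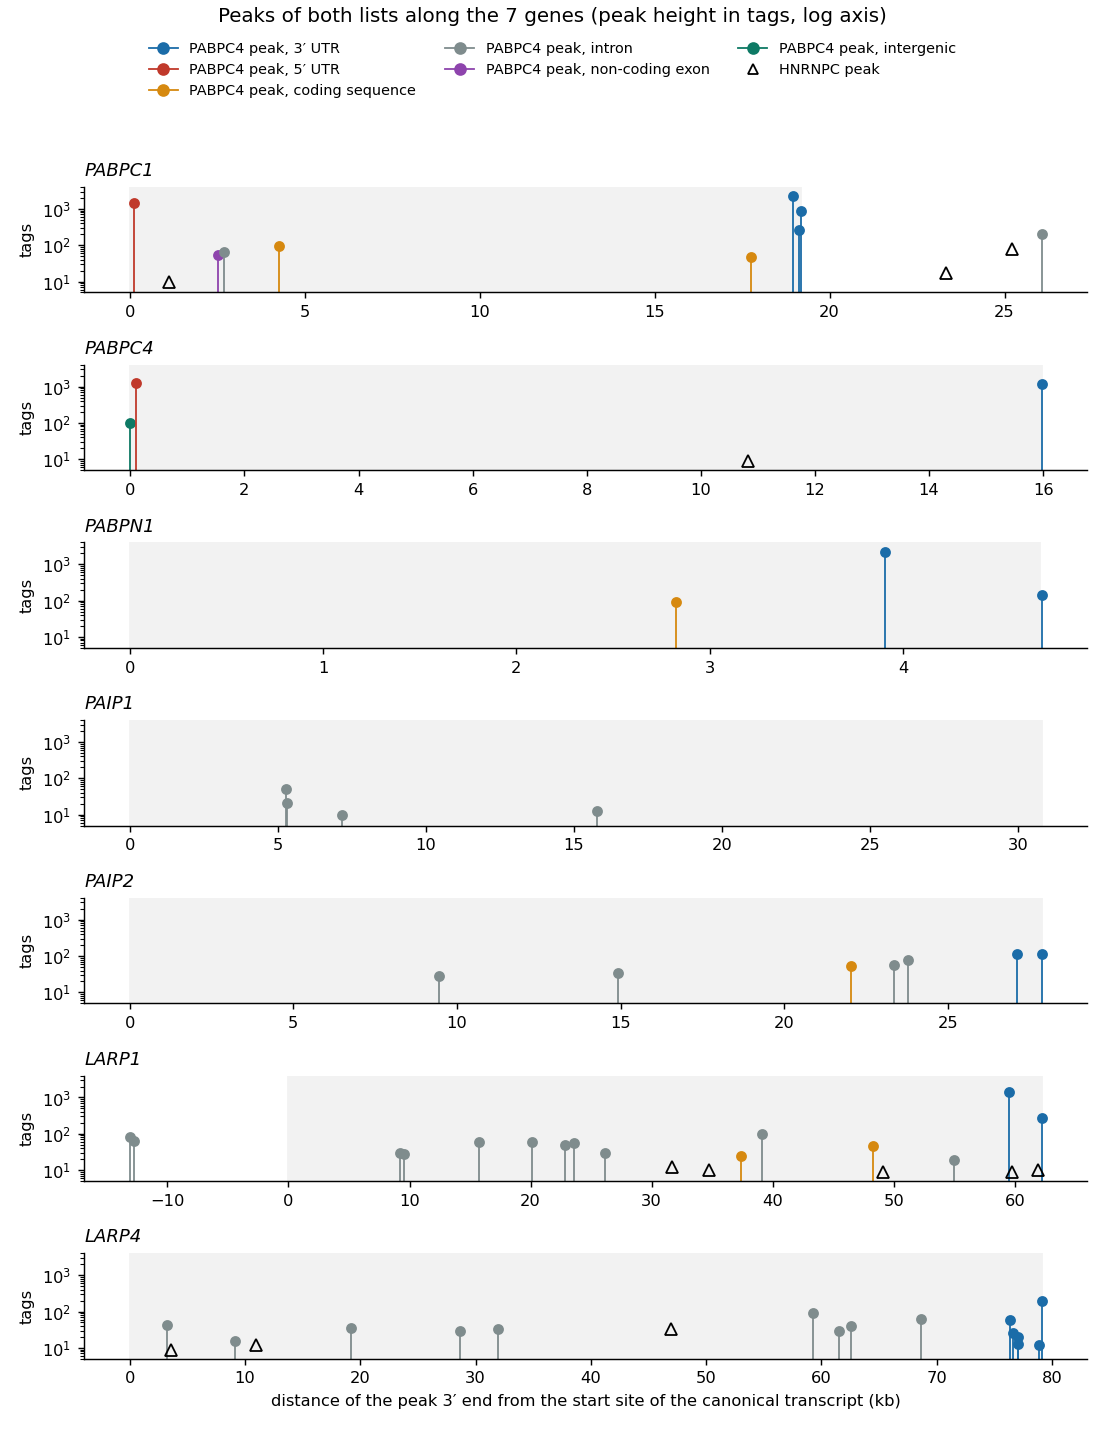
Peaks of both lists along the 7 genes, with the distance of the peak 3′ end from the start site of the canonical transcript in kb (x axis) and peak height in tags on a log axis (y). Circles are PABPC4 peaks coloured by the feature at their centre, triangles are HNRNPC peaks, and the grey span is the canonical transcript. The tallest PABPC4 peaks sit in the UTRs, and intron peaks in LARP1, LARP4, PAIP1 and PAIP2 stay below 100 tags. The 12 HNRNPC peaks come from a shorter list, of 9107 peaks against 63507.

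Outside the UTRs, 30 of the 56 PABPC4 peaks lay in introns, 53.6% against 60.2% of the whole list, and held 10.9% of the summed height, against 41.3% over the list. They ranged from 10 to 203 tags with a median of 42.0 tags. An A-rich stretch followed 18 of the 30, against 71.2% of all intron peaks, and over all features 29 of 56, 51.8% against 58.5%. LARP1 had 11 intron peaks (19 to 96 tags, 7 followed by an A-rich stretch), LARP4 had 9 (15 to 89 tags, 5 followed), and PAIP2 had 4 (28 to 76 tags, 2 followed). Another place in the genome with at most 2 mismatches was found for 14 of the 30, and the same share over all intron peaks was not computed.

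The tallest intron peak was in PABPC1, at 203 tags (chr8:100696024-100696079). It ended 6892 nt beyond the canonical 3′ end, inside the annotated gene only because a longer transcript extends there, and was followed by an A-rich stretch. The 6 coding sequence peaks of the 7 genes, 10.7% of their peaks against 5.04% of the list, ranged from 25 to 95 tags, the tallest in exon 3 of PABPC1. An A-rich stretch followed 2 of them, in PAIP2 (54 tags) and LARP1 (25 tags), against 62.0% of all coding sequence peaks. In PABPC1, a coding sequence peak of 48 tags had 4 other places in the genome with at most 2 mismatches.

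The 7 genes held 12 of the 9107 HNRNPC peaks, against 56 of the 63507 PABPC4 peaks, so the lower count comes from a shorter list. Most of the 12 lay in introns. The 12 peaks fell in 4 of the 7 genes, against 19.0% of protein-coding genes with an HNRNPC peak, and PABPN1, PAIP1 and PAIP2 had none. Of the 12, 9 lay in introns, 75.0% against 85.5% of the list, and 8 had UUUUU inside the peak or in the 50 nt upstream, 66.7% against 38.8%. Most were low, with a median of 10.0 tags against 11 for the list.

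The tallest HNRNPC peak was in PABPC1 and reached 77 tags (chr8:100696864-100696996), above 98.5% of the list, with UUUUU inside it. It lay in the same stretch beyond the canonical 3′ end as the PABPC4 peak of 203 tags, 784 nt before it, and a second HNRNPC peak of 17 tags (chr8:100698756-100698849) lay there too. The remaining PABPC1 peak reached 10 tags (chr8:100720951-100721027) and lay in a non-coding exon in the first intron of the canonical transcript. PABPC4 had 1 peak, of 9 tags (chr1:39565959-39566053), in intron 7.

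LARP4 had intron peaks of 34 tags (chr12:50447666-50447831, intron 8, with UUUUU inside), 12 tags (chr12:50411724-50411837) and 9 tags (chr12:50404394-50404485), the last pair in intron 1. LARP1 had intron peaks of 12 tags (chr5:154786933-154787034), 10 tags (chr5:154790030-154790146) and 9 tags (chr5:154804435-154804513). LARP1 was the one gene of the 7 with HNRNPC peaks in the 3′ UTR, of 9 tags (chr5:154815042-154815131) and 10 tags (chr5:154817155-154817286), where 4.97% of the list lay. Both are below the list's median of 11 tags, and neither has an authors' p-value of at most 0.001. The first began 123 nt after the PABPC4 peak of 1441 tags, and the second ended 177 nt before the PABPC4 peak of 271 tags. None of the 12 HNRNPC peaks overlapped a PABPC4 peak, as was usual, since 0.944% of the HNRNPC list did. The distance to the nearest in the same gene ran from 123 to 12277 nt, and its median was 1309.0 nt against 3837.0 nt over the 8982 HNRNPC peaks whose gene had a PABPC4 peak.

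For context, 29 relatives and partners of these genes were listed from general knowledge. Of these, 22 had a PABPC4 3′ UTR peak, against 48.8% of protein-coding genes, and 13 had an HNRNPC peak, against 19.0%. Among 6 poly(A)-binding relatives 3 had a 3′ UTR peak, the highest summed height being 294 tags (ZC3H14, a nuclear poly(A)-binding protein), and PABPC3, PABPC5 and PABPN1L had none. All 5 LARP relatives had one, up to 538 tags (LARP4B), as did 14 of 18 partners. A 5′ UTR peak was present in 2 of the 29, LARP7 (106 tags) and TNRC6C (41 tags), both below the peaks of PABPC1 and PABPC4.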

How the data were processed

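CLIP tags of MDA-MB-231 cells were mapped to hg38 by the authors (BWA 0.7.17 with UMI-tools and cutadapt in the submitters' processing notes) and peaks were called with the CLIP Tool Kit on the tags of both samples pooled. The deposited signal is the peak height in tags, not scaled to depth. The library depth is unknown here, so heights were compared only within a list. The file name of the HNRNPC list gives HITS-CLIP where the labels give irCLIP. PABPC4 processing was not described separately. The gene IDs, expected heights and p-values in the lists are the authors' peak tests, and p-values were used only as filters.

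Members were matched by NCBI Gene ID (PABPC1 26986, PABPC4 8761, PABPN1 8106, PAIP1 10605, PAIP2 51247, LARP1 23367, LARP4 113251) through RefSeq (GRCh38.p14) and each position was counted once. The centre of a peak was assigned, in the order 3′ UTR, coding sequence, 5′ UTR, non-coding exon, intron, with GENCODE 44, where UTRs and coding sequence came from protein-coding transcripts. Transcript ends marked incomplete were left out. Canonical transcripts are MANE Select. Other places in the genome were sought for the whole sequence of each peak with BLAST+ 2.17.0 (at most 2 mismatches, no gaps). Shorter stretches within a peak were not searched, so the search is stricter for longer peaks. Sequences and A counts came from the genome with Python 3.11.15 and pyfaidx 0.9.0.4, and helpers were tested on simulated data. Wilson intervals (95%) used SciPy 1.17.1 and treat heights as tag counts.

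All 7 genes are named. Peaks named are the tallest 3′ UTR peak of each gene, 3′ UTR peaks with at least 10% of its 3′ UTR height, 5′ UTR peaks, HNRNPC peaks and the tallest other peak, and further peaks were chosen after their values were seen. The members and lists were chosen with earlier results of these data known. Other alternatives are given in the closing section.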

Additional observations from a re-analysis of the deposited data

How the results depend on the processing

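For 7 counts of peaks, 33 alternatives were run, of which 25 stayed within 1.5 times the reported count. Without PABPC4 peaks followed by an A-rich stretch, the PABPC4 peaks of the 7 genes numbered 27, the 3′ UTR peaks 9, those at an annotated 3′ end 7 and those with a poly(A) signal 7. Only peaks at or above the median height of their list left 37 PABPC4 and 5 HNRNPC peaks, and an authors' p-value of at most 0.001 left 5 HNRNPC peaks. With the A-rich stretch sought within 20 nt, 19 peaks were followed by one. The 5′ UTR peaks stayed at 2 in each alternative run. Leaving out peaks followed by an A-rich stretch was not run for this count. It would remove both, since an A-rich stretch follows each of them.

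Some alternatives were chosen after seeing the data. Reading the A-rich stretch from 30 nt before to 50 nt after the peak end gave 40 of 56 peaks, against 73.1% of the list, and 14 of 16 3′ UTR peaks (87.5%, against 63.2% of all 3′ UTR peaks). The 3′ UTR peaks gained were the LARP1 peak of 1441 tags and the canonical-end peaks of 6 genes, so the peaks with an annotated end, a signal and no A-rich stretch went from 7 to 1. Leaving out the peaks shared with BCL2L2-PABPN1 left 53 PABPC4 peaks and 14 3′ UTR peaks. The PABPC1 and PABPC4 5′ UTR peaks went from rank 1 and 2 to rank 2 and 3 when placed by the peak 3′ end or by any overlap.

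No paired analysis was possible because tags of replicates 1 and 2 had been merged before peaks were called, which also kept either replicate from being left out. The depth of the libraries was not analysed here, and a gene without a listed peak is not shown to lack binding.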
